A study of Takifugu obscurus and Periophthalmus magnuspinnatus and Gallus gallus with 6 samples.

Results

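The cells described here are fugu spinal cord cells that carry transcripts of genes that separate chromosomes, and they are called cycling cells. They came from the rostral cord of juvenile pufferfish (labelled Takifugu obscurus, a hybrid with Takifugu rubripes in the study's methods) about 1 month after hatching, untreated, and their reads were mapped to the Takifugu rubripes genome. The tissue was dissociated with pronase, sorted for propidium iodide exclusion and measured by 10x 3' single-cell RNA sequencing in 2 libraries, each a pool of several fish, so that the library and not the cell is the unit of replication. A barcode was kept above 3000 UMIs, where a UMI is a captured RNA molecule. Of 5182 kept fugu barcodes (2610 and 2572 in libraries 1 and 2), 199 (91 and 108) carried at least 1 UMI of top2a and at least 1 UMI over mad2l1, kif11 and cdca3 together, and the other 4983 (2519 and 2464) are the cells they were compared with. The members were thus chosen by their measured counts of these 4 genes, whose levels are given as a description, with no test.

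Dividing cells copy their DNA in S phase, prepare for division in G2 and part their chromosomes in M phase, and each phase has its own transcripts. The fish spinal cord keeps radial glia, cells that line the central canal, into juvenile and adult life, and these can divide and give rise to neurons and glia. Oligodendrocyte precursors, which mature into the myelinating cells of the cord, and microglia, its resident immune cells, can divide as well. Which of these the cycling barcodes resembled was read from marker genes of each type.

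Cycling cells made up 3.49% of library 1 (exact 95% interval 2.82 to 4.26) and 4.20% of library 2 (3.46 to 5.05), intervals that cover counting error only. The 2 libraries shared no kept barcode, and their counts differed by more than counting error (chi-square per degree of freedom 17.5), so neither is a copy of the other. The median depth of cycling barcodes was 8303 and 8506 UMIs against 5346 and 5403.5 in the other barcodes, 1.55 and 1.57 times as deep. Since a deeper cell carries more genes, shares of cells are given after each cell was thinned to 3000 UMIs, unless stated otherwise. The rule itself was read before thinning, so a deeper barcode could meet it more easily. The share of cycling cells within a gate is therefore not matched for depth. At 3000 UMIs a cycling barcode showed a median of 1234 and 1188 genes, against 1349 and 1327 in the other barcodes. Scrublet marked 1 and 7 of the cycling barcodes as likely doublets (1.10% and 6.48%) and 2.10% and 1.87% of the other barcodes, and the doublets were kept, with an alternative that removes them.

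The genes of the rule were high in the cycling barcodes and low elsewhere, in CPM, the UMIs of a gene per 1000000 UMIs summed over the cells of a library. Top2a (ENSTRUG00000016398), the topoisomerase that untangles DNA before division, was at 726 and 684 CPM against 3.15 and 2.52. Mad2l1 (ENSTRUG00000023674), of the spindle checkpoint, was at 724 and 752 CPM against 2.23 and 2.19 and was carried by 94.5% and 95.4% of members, unthinned. Kif11 (ENSTRUG00000012228), the motor that pushes spindle poles apart, was at 581 and 512 CPM against 2.36 and 1.59. Cdca3 (ENSTRUG00000025706), which acts at entry into mitosis, was at 847 and 659 CPM against 2.95 and 2.12 but was carried by only 45.1% and 37.0% of members, so that its transcripts sat in fewer cells, with up to 60 and 75 UMIs in a cell. At the edge of the rule, the 11 members with exactly 1 UMI of top2a and 1 of the others had a UMI of mki67, the Ki-67 proliferation marker, in 18.2%, unthinned. Of the 95 members with at least 5 UMIs on both sides, 95.8% carried mki67. Just outside, mki67 was in 6.35% of the 63 barcodes with top2a alone, in 3.67% of the 109 with another rule gene and no top2a, and in 0.457% of the 4811 with none of the 4.

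**Figure D1:**
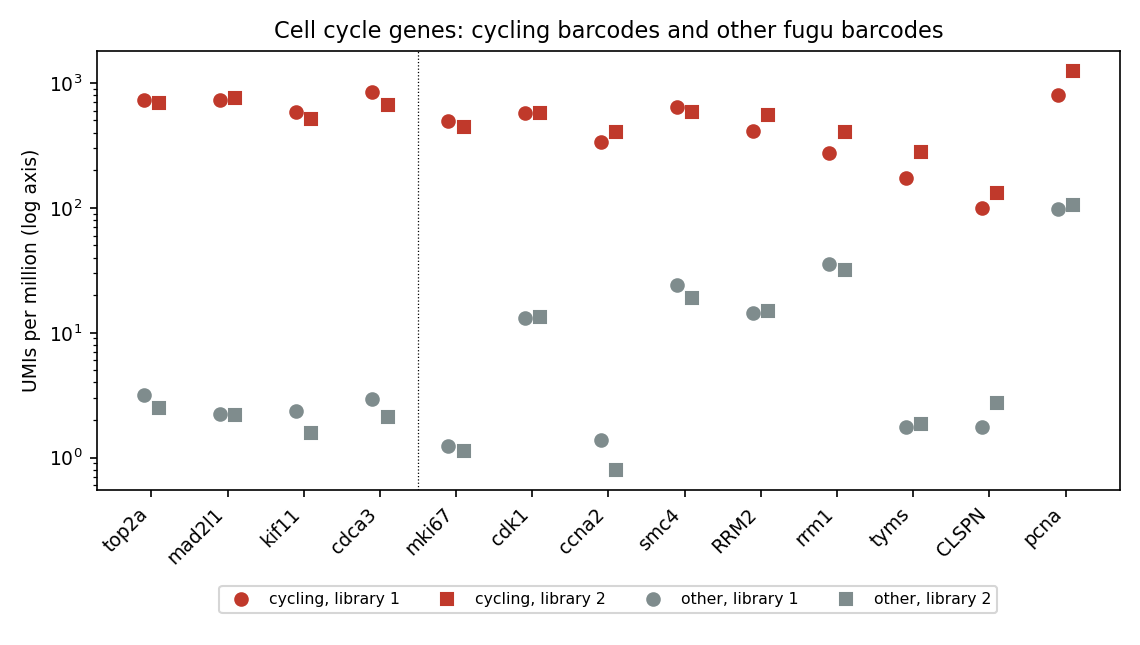
Level of 13 cell cycle genes, in CPM on a log axis, in the summed cycling barcodes (red) and the summed other barcodes (grey) of library 1 (circles) and library 2 (squares). The 4 genes left of the dotted line chose the cells, and for every gene drawn both cycling values lie above both other values.

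Cell cycle genes beyond the rule were high in the same cells, which is given without a test because they travel with the genes that chose the members. Summed over the 65 measured features of the G2 and M list, cycling barcodes held 26492 and 24220 CPM against 4259 and 3743. The 59 features of the S phase list summed to 4826 and 6653 CPM against 771 and 694. Mki67 (ENSTRUG00000016448) was at 499 and 442 CPM against 1.25 and 1.13, and ccna2, the cyclin of S and G2 phases, at 337 and 408 CPM against 1.38 and 0.795. Among replication genes, RRM2, a subunit of the enzyme that makes DNA building blocks, was at 413 and 553 CPM against 14.5 and 15.0. Pcna, the clamp of the replication fork, was at 801 and 1251 CPM against 98.1 and 106. The chromatin proteins hmgb2a (4224 and 3526 CPM against 517 and 455) and h2az2a were carried by nearly every cycling cell and also by many others, h2az2a by 98.9% and 99.1% against 55.5% and 46.8%.

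The cells spanned S phase to mitosis, with more of the late phases. Counted at 3000 UMIs over 49 S phase and 58 G2 and M features that under 10% of other barcodes carried, a member had a median of 5 and 8 S phase UMIs and 33 and 27 G2 and M UMIs in libraries 1 and 2. With at least 5 UMIs taken as present, 79 of 199 members showed the G2 and M list alone, 9 the S phase list alone, 109 both and 2 neither. The 2 sums ran against each other across the members of each library (Spearman's rho -0.45 and -0.49, a description over cells that share a library and a fixed depth). Top2a and the other rule genes belong to the late phases, and outside the members 135 of 4983 barcodes had at least 5 S phase UMIs with fewer than 5 of the G2 and M list. The rule therefore left out barcodes with S phase transcripts, and the share of cycling cells given above does not count them. The members that passed a microglia marker gate had a median of 18 G2 and M UMIs, those with the her9 glia gate 29 and those with neither gate 33, with S phase medians of 3, 7 and 7.

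**Figure D2:**
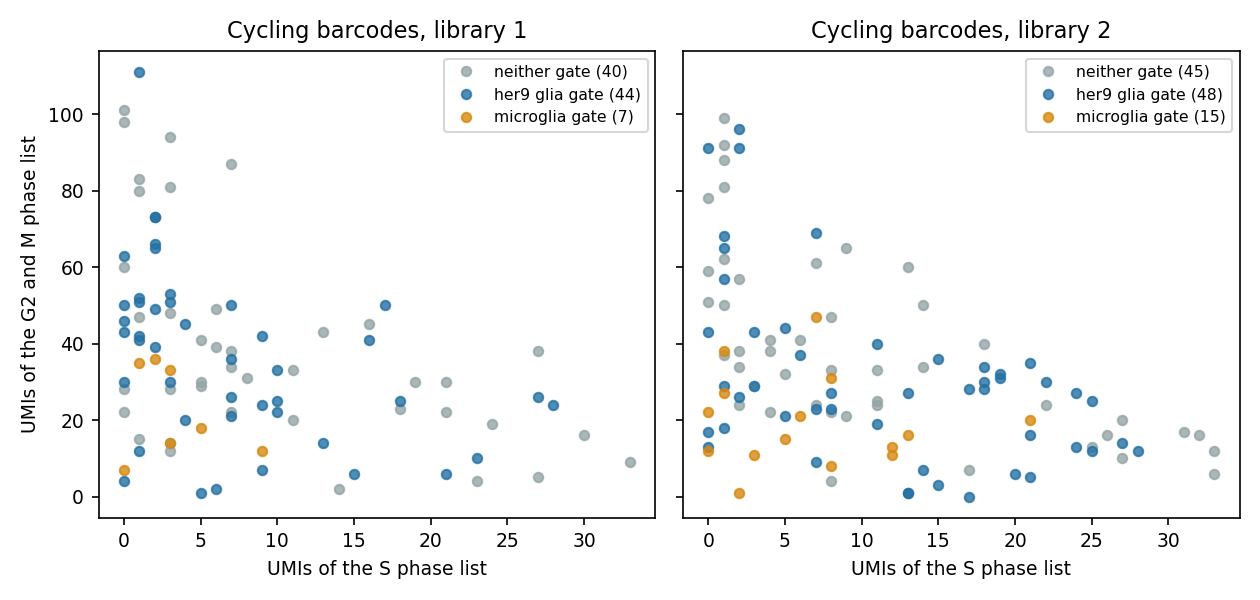
UMIs of the S phase list (x axis) against UMIs of the G2 and M list (y axis) in each cycling barcode thinned to 3000 UMIs, by library, coloured by the marker gate it passed, with the number of barcodes in brackets and barcodes with both gates drawn as her9 glia. The points reach 111 G2 and M UMIs at low S phase counts and 33 S phase UMIs at low G2 and M counts, and the microglia-gated points go no higher than 47 G2 and M UMIs.

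For cell identity, a barcode passed a marker gate if it carried at least 2 different genes of a short list. The her9 glia gate (her9, crabp2a, gfap, genes of progenitor-like glia) was the most frequent among cycling cells, with 44 of 91 (48.4%, 37.7 to 59.1) and 48 of 108 (44.4%, 34.9 to 54.3), against 9.29% and 8.12% of other barcodes. The immature neuron gate was passed by 18.7% and 8.33% of cycling cells against 3.73% and 2.39%. The microglia gate was passed by 7 and 17 members (7.69%, 3.15 to 15.2, and 15.7%, 9.45 to 24.0) against 5.68% and 11.6% of others, intervals that overlap within each library. The myelinating oligodendrocyte gate was rarer among cycling cells, with 19.8% and 22.2% against 63.4% and 60.3%, and the endothelial or mural gate was passed by 0 and 1 members. The astrocyte gate was passed by 20.9% and 21.3% of cycling cells against 23.1% and 21.8% of others, with overlapping intervals, and before thinning by 41.8% and 36.1% against 29.8% and 26.8%. The oligodendrocyte precursor gate (2 of SOX10, olig1, olig2, sox8, gpr17, nkx2.2a and prdm8b), genes of which mature oligodendrocytes also carry, was passed by 11.0% and 16.7% against 38.7% and 32.6%. The neuron gate was passed by 12.1% and 7.41% against 21.3% and 19.6%.

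Seen from the other side, the share of cycling cells differed widely between gates. Of barcodes with the her9 glia gate 15.8% (11.7 to 20.7) and 19.4% (14.6 to 24.8) were cycling, and of those with the immature neuron gate 15.3% (9.18 to 23.4) and 13.2% (6.23 to 23.6), 2 gates whose intervals overlap. The microglia gate stood at 4.67% (1.90 to 9.38) and 5.59% (3.29 to 8.80). The oligodendrocyte precursor gate stood at 1.02% and 2.19%, the neuron gate at 2.01% and 1.63% and the myelinating gate at 1.11% and 1.59%. In each library the upper bounds of these last 3 gates, at most 3.57%, lay below the lower bounds of the her9 glia gate. The precursor gate was also passed by 38.7% and 32.6% of other barcodes, and mature oligodendrocytes carry its genes too. Its cycling share is therefore not the share of precursors that divide. Free RNA can add a UMI to cells of any type. Mbpa, a myelin gene, was in 14.3% and 19.4% of cycling cells and in 22.6% and 19.7% of microglia-gated other barcodes, which do not make myelin. Of the 13 myelinating features, 3 in library 1 and 5 in library 2 were carried by a larger share of cycling cells than of these microglia-gated cells, cnp and cldn11a in both libraries, and the part of free RNA in the myelin transcripts of cycling cells was not tested.

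**Figure D3:**
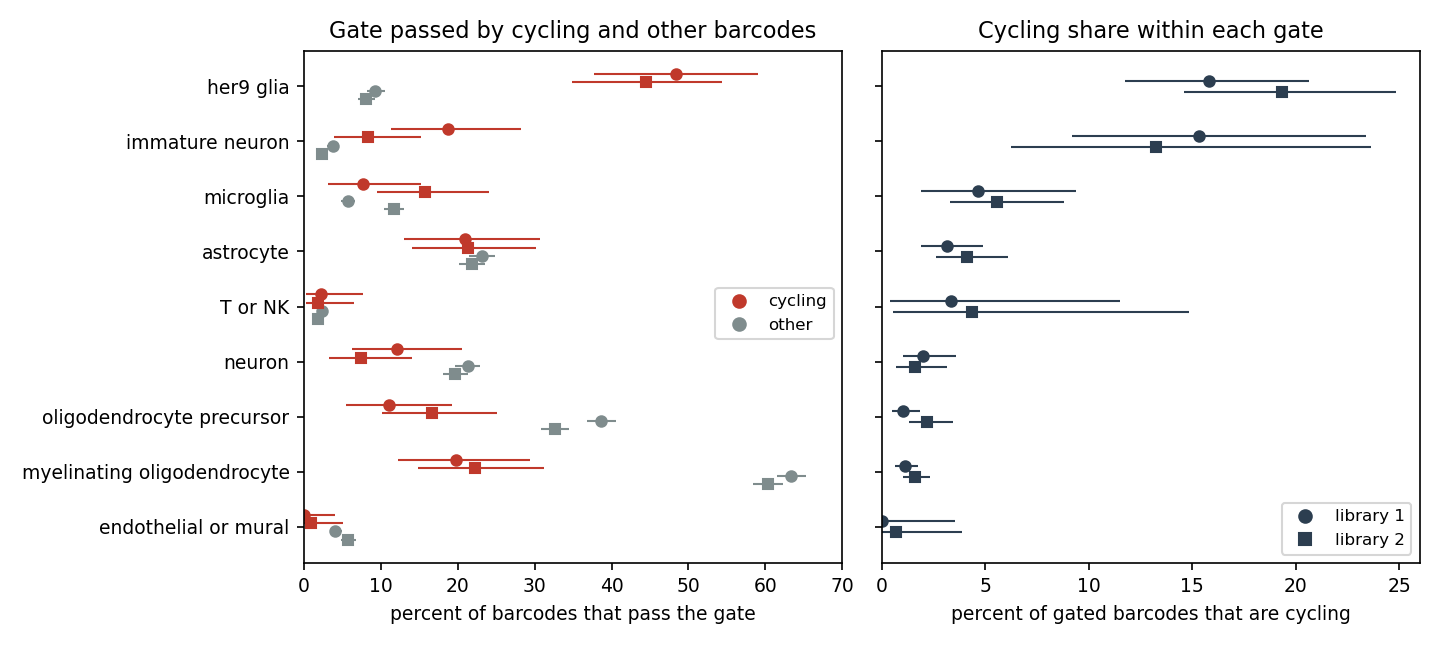
Left, percent of cycling (red) and other (grey) barcodes that passed each marker gate at 3000 UMIs, and right, percent of the barcodes of each gate that are cycling, for library 1 (circles) and library 2 (squares), with exact 95% intervals for counting error as bars. The her9 glia gate held 48.4% and 44.4% of cycling barcodes against under 10% of the others, and its cycling share of 15.8% and 19.4% lay above that of the precursor, neuron and myelinating gates. Mature oligodendrocytes also carry genes of the precursor gate, so its share is not that of precursors alone.

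By these gates the 199 cycling cells split into 92 with the her9 glia gate, 24 with the microglia gate (2 of them also in the former) and 85 with neither. The 92 carried the Notch receptor notch1a in 78, the Notch-responsive her4.1 in 81, the BMP-responsive id1 in 56 and zic1 in 76, and none of them carried c1ql4b or prdm8b. Scrublet had marked 5 of the 24 microglia-gated members and 3 of the 92 as likely doublets, which leaves 19 and 89 without them. The 24 carried lcp1 in 24, coro1a in 22, ptprc (CD45) in 20 and AIF1 in 17, and her9 in 2. A gate of immune markers chose these cells, so high shares of such markers may follow from the gate. All 4 members with the T or NK gate were among these 24, and they carried prf1.1, a perforin of killer cells, in 4 and cd3e, of the T cell receptor complex, in 3. The microglia gate thus also takes in lymphocytes, and cd3e was in 25.8% and 7.82% of the microglia-gated other barcodes as well. Csf1ra, a receptor that defines microglia in mammals and zebrafish, had no UMI in the 199 members before thinning, which allows a share of cells with a UMI of up to 1.51%. It was in 0.645% and 0% of the microglia-gated other barcodes, thinned, and could not serve as a marker at this depth.

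Of the 85 with neither gate, 26 passed the oligodendrocyte precursor gate and 59 did not. Of the genes that make up this gate, the 26 carried sox8 in 24, nkx2.2a in 21, SOX10 (ENSTRUG00000033126) in 17 and prdm8b in 12, shares that the gate itself raises. Among genes outside the gate they carried sema5a in 21. Having failed the her9 glia gate, they carried her9 in 7 and gfap in 0. Only 3 of them carried gpr17, the receptor of committed precursors, and MYRF, the switch of myelin gene expression, was in 0 of all 199 members after thinning, against 24.6% and 19.9% of other barcodes, and in 1.10% and 2.78% of members before thinning. Pdgfra, which marks oligodendrocyte precursors in mammals, was in 1 of these 26, against 27 of the 92 her9 glia and 23 of the remaining 59. In these cycling cells pdgfra thus lay mostly outside the cells of the precursor gate. The remaining 59 carried notch1a in 51, sox2 in 48, HES6 in 46, her4.1 in 46, insm1b in 21 and her9 in 28. They shared notch1a and her4.1 with the her9 glia. Gfap was in 14 of 59 against 85 of 92. Her9 and gfap belong to the gate that set these groups apart, so this contrast follows from the gate.

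Genes that mark the path from progenitor to neuron were often, but not always, carried by the same cells, counted over both libraries. Insm1b, a factor of newly committed neuronal precursors, was carried by 32 of the 175 members outside the microglia gate. Of these 32, 31 also carried HES6 (96.9%), 23 sox11a (71.9%) and 19 the Notch ligand DLL4 (59.4%), against 42.7%, 17.5% and 9.79% of the 143 without insm1b. Gfap went the other way, with 15.6% of insm1b carriers against 64.3%, while her9 was in 81.3% against 68.5% and notch1a in 96.9% against 74.1%. None of the 32 carried sema5a. In turn, insm1b was in 31 of 92 HES6 carriers (33.7%), 23 of 48 sox11a carriers (47.9%) and 19 of 33 DLL4 carriers (57.6%). Neurod1 and gad2, genes of neurons, had no UMI in the 199 members before thinning, which allows a share of cells with a UMI of up to 1.51%, while 19 members passed the neuron gate. Neurog1, nhlh2 and another hes6 feature (ENSTRUG00000029610) had none either. In all, 8 of 24 immature neuron and 6 of 31 neuron features had no UMI in any member. Only 16 of these 24 and 22 of these 31 had counts enough to be tested against all other fugu cells. A feature with no UMI in the members may thus be rare in all fugu cells. The shares of carriers above are of single cells at a fixed depth, given as a description, and their spread between fish is not known.

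Summed per library, 13810 genes were compared between cycling and all other fugu cells by edgeR's quasi-likelihood test with Benjamini-Hochberg adjustment, and 2273 were higher (16.5%) and 2546 lower (18.4%) at an adjusted p under 0.05. With the library as replicate block the counts were 2573 and 3025. The 6 largest increases were in genes of division (cenpi, nusap1, fbxo5, nuf2, cenpl and mki67), as the rule brings with it. The largest decreases were in genes of other cell types. Tpm2 (log2 fold change -6.42 ± 0.61, SE, adjusted p = 0.00057), ACTA2 (-6.25 ± 0.58, adjusted p = 0.00051) and rgs5b (-6.12 ± 1.12, adjusted p = 0.0077) belong to vascular mural cells, and npb and sst1.1 encode neuropeptides. Each of these 5 genes rested on 0 to 3 UMIs per library in the cycling cells, so that the fitted size is no bound. The calls of npb, sst1.1 and rgs5b were lost when either cycling library was left out, and those of tpm2 (adjusted p = 0.16) and rgs5b (0.12) among barcodes of 6000 to 12000 UMIs. Hbbe2, a globin of red cells, was at 70.2 and 35.5 CPM against 3714 and 2277.

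Progenitor genes were higher in the cycling cells. Of 32 tested features of the progenitor glia list 18 were called higher and 2 lower (median log2 fold change 1.10, against -0.16 over all genes tested). Among all tested genes 16.5% were higher and 18.4% lower. The her9 glia gate was passed by 46.2% of members against 8.71% of others. A higher level per cell and more cells of a type therefore cannot be told apart here. Notch1a was at 642 and 628 CPM against 85.7 and 92.4 (3.09 ± 0.12, adjusted p = 2.4e-05), with no overlap between groups. Her9 was at 806 and 808 CPM against 153 and 128 (2.78 ± 0.13, adjusted p = 4.1e-05), and sox2, a factor of neural progenitors, at 559 and 532 CPM against 240 and 277 (1.33 ± 0.13, adjusted p = 0.00059). Her4.1 rose by 2.01 ± 0.22 (adjusted p = 0.00092). Fabp7b, a fatty acid binding protein of radial glia, was at 3619 and 2651 CPM against 4451 and 4426 and did not pass (-0.25 ± 0.14, adjusted p = 0.22). It was called lower with the library as block (adjusted p = 0.0092), between cells of 6000 to 12000 UMIs (-1.04, adjusted p = 0.0029) and without the cycling sum of library 1.

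Delta-type Notch ligands rose, and Jagged-type ligands did not pass the test, in genes of the progenitor glia list named here after their values were seen. Dla was at 131 and 122 CPM against 15.9 and 18.6 (3.13 ± 0.18, adjusted p = 8.3e-05), and DLL4 at 39.9 and 74.1 CPM against 4.53 and 5.04 (3.84 ± 0.34, adjusted p = 0.000425), and dlb (3.50 ± 0.37, adjusted p = 0.00092) and dlc (5.66 ± 0.43, adjusted p = 0.00023) rose too. Jag1b (0.48 ± 0.24, adjusted p = 0.16) and jag2b (-0.83 ± 0.39, adjusted p = 0.14) did not pass. Of the receptors, notch1b rose with notch1a (3.04 ± 0.30, adjusted p = 0.00064), while notch2 (0.41 ± 0.49, adjusted p = 0.56) and notch3 (0.28 ± 0.23, adjusted p = 0.39) did not pass. In the immature neuron list 6 of 16 tested features were called higher and 6 lower (median -0.76). Over all genes tested 16.5% were higher and 18.4% lower (median -0.16). HES6 (558 and 559 CPM against 93.3 and 82.3, 2.93 ± 0.12, adjusted p = 3.0e-05), sox11a (2.44 ± 0.29, adjusted p = 0.0015) and insm1b (179 and 53.2 CPM against 6.69 and 7.22, 4.29 ± 0.53, adjusted p = 0.0016) rose. Tubb5, a tubulin that most other barcodes carried, fell (96.8 and 73.0 CPM against 927 and 776, -3.07 ± 0.17, adjusted p = 8.4e-05). Of 22 tested neuron features 1 was called higher and 13 lower (median -1.41).

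Genes of the oligodendrocyte precursor list went both ways, and most myelin genes were lower. Of 18 tested precursor features 5 were called higher and 7 lower (median -0.33, against -0.16 over all genes tested). Over all genes tested 16.5% were higher and 18.4% lower. Pdgfra rose (123 and 96.0 CPM against 19.9 and 17.8, 2.79 ± 0.19, adjusted p = 0.00016), as did sox8 (318 and 485 CPM against 186 and 178, 1.40 ± 0.21, adjusted p = 0.0033) and sox6 (1.21 ± 0.21, adjusted p = 0.0069, not called after thinning, adjusted p = 0.067, or without a filter on low counts, 0.054). Both SOX10 copies fell, ENSTRUG00000033126 from 228 and 232 to 59.3 and 87.6 CPM (-1.38 ± 0.20, adjusted p = 0.0029) and ENSTRUG00000008350 from 195 and 157 to 42.4 and 37.6 CPM (-1.88 ± 0.18, adjusted p = 0.00064). OLIG2, a factor that specifies the lineage, fell from 25.6 and 18.2 to 6.05 and 2.09 CPM (-2.21 ± 0.50, adjusted p = 0.017), a call lost without a filter on low counts (0.073) or without the cycling sum of library 2 (0.079). MYRF fell by 4.73 on the log2 scale (SE 0.38, adjusted p = 0.00030), with 1 and 4 UMIs left in the cycling cells. Of 12 tested myelinating features 9 were called lower, among them plp1b (1361 and 2211 CPM against 39526 and 37356, -4.17 ± 0.23, adjusted p = 8.2e-05) and mbpa (403 and 380 CPM against 8067 and 5967, -3.91 ± 0.16, adjusted p = 2.4e-05). The 2 called higher were cnp (0.53 ± 0.14, adjusted p = 0.025) and cldn11a (69.0 and 40.7 CPM against 12.1 and 5.43, 2.89 ± 0.45, adjusted p = 0.0043), the latter a tight junction protein. Cnp was not called without a filter on low counts (0.097), without the cycling sum of library 1 (0.10) or without the other sum of library 2 (0.14), and cldn11a not without the filter (0.051).

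No gene of the microglia list passed this test. Of 14 tested features 0 were called, with a median log2 fold change of 0.35, by edgeR's quasi-likelihood test, 1 passed an unadjusted p under 0.05, and DESeq2 also called 0. Coro1a was at 166 and 419 CPM in cycling cells and 72.3 and 183 CPM in others (1.46 ± 0.55, adjusted p = 0.087), lcp1 at 130 and 245 against 77.3 and 174 (0.84 ± 0.45, adjusted p = 0.19) and ptprc at 64.2 and 125 against 39.2 and 93.6 (0.78 ± 0.49, adjusted p = 0.26). Library 2 was higher than library 1 in both groups, and with the library as replicate block all 3 were called higher (adjusted p = 4.9e-09, 3.6e-05 and 0.00088). Coro1a was also called higher with thinned sums (1.35, adjusted p = 0.031), among cells of 6000 to 12000 UMIs (1.47, adjusted p = 0.024) and without either other sum, and all 3 without the other sum of library 2 (2.29, 1.55 and 1.55). AIF1 was at 37.5 and 118 CPM against 45.2 and 129 and was not called in either fit. Astrocyte genes were mostly lower, 9 of 14 tested features with 2 higher (median -1.79). Over all genes tested 18.4% were lower and 16.5% higher (median -0.16). Both copies of glula, the glutamine synthetase, fell by 1.87 and 1.93 on the log2 scale (SE 0.11 and 0.13, adjusted p = 0.00011 and 0.00016). The other barcodes hold all cell types of the cord, and here a lower level per cell and fewer cells of a type cannot be told apart.

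To hold the cell type closer, cycling and other cells were compared within the her9 glia gate, read before thinning, with 56 and 59 cycling against 285 and 266 other cells. The gate genes her9, crabp2a and gfap were left out of the test. Of 8434 genes 1028 were higher (12.2%) and 916 lower (10.9%), and 1106 and 1019 with the library as replicate block. The median depth was 8584.5 and 8170 UMIs in the cycling and 6888 and 6822.5 in the other her9 glia. Neuron-, microglia- and precursor-gated members were too few for such a fit, under 20 in a library.

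Within her9 glia 12.2% of all genes tested were called higher and 10.9% lower. Of 7 tested features of the immature neuron list 4 were called higher and 0 lower (median 1.45, against -0.04 over all genes tested). Of the other 3, tubb5 (-0.32 ± 0.37, adjusted p = 0.59) and DCX (-1.17 ± 0.60, adjusted p = 0.20) were called lower only in a fit that left out 1 sum, tubb5 without the cycling sum of library 1 (-1.07, adjusted p = 0.044) and DCX without the other sum of library 1 (-1.73, adjusted p = 0.048). HES6 was at 555 and 621 CPM against 225 and 176 (1.58 ± 0.18, adjusted p = 0.00033), insm1b at 144 and 51.6 CPM against 7.95 and 7.64 (3.66 ± 0.47, adjusted p = 0.00062) and DLL4 at 35.5 and 80.3 CPM against 5.61 and 4.58 (3.51 ± 0.46, adjusted p = 0.00075). Insm1b was the higher in library 1 and DLL4 the higher in library 2, and neither overlapped with the other her9 glia. Both were low in the other her9 glia, and the filter on low counts lets a gene enter the test through 1 group alone. The immature neuron list has 24 features, so its count and median describe only the features that passed this filter. Sox11a rose by 1.45 ± 0.27 (adjusted p = 0.0054), but not after thinning (0.83, adjusted p = 0.13) or with the gate read in thinned cells (0.97, adjusted p = 0.070). The progenitor glia list went both ways, with 8 of 27 tested features called higher and 6 lower (median -0.23). Notch1a rose (710 and 705 CPM against 324 and 333, 1.14 ± 0.14, adjusted p = 0.00055), as did dla (1.36 ± 0.20, adjusted p = 0.0014). Jag1b was lower (80.4 and 84.1 CPM against 143 and 176, -0.92 ± 0.20, adjusted p = 0.011, and 0.054 without the other sum of library 2), and notch3 was too (-0.82 ± 0.24, adjusted p = 0.037), a call lost in 5 alternatives. Sox2 was at 521 and 556 CPM against 573 and 678 (-0.18 ± 0.15, adjusted p = 0.44) and her4.1 at 2112 and 3483 against 1901 and 2389 (0.42 ± 0.22, adjusted p = 0.21). Her4.1 was called higher with the gate read in thinned cells (0.50, adjusted p = 0.018) and without the cycling sum of library 1 (0.81, adjusted p = 0.0043) or the other sum of library 2 (0.56, adjusted p = 1.6e-05), and stood at -0.01 without the cycling sum of library 2.

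Most tested genes of settled glia were lower. Of 12 tested astrocyte features 9 were called lower and 1 higher (median -1.76, against -0.04 over all genes tested). Over all genes tested 10.9% were lower and 12.2% higher. SLC6A11, a GABA transporter, was at 331 and 445 CPM in cycling and 1964 and 2399 CPM in other her9 glia (-2.46 ± 0.18, adjusted p = 2.2e-05), and slc1a3a, a glutamate transporter, at 103 and 136 against 260 and 308 (-1.22 ± 0.20, adjusted p = 0.0027). Named after their values were seen, slc1a2b, the other glutamate transporter, was at 178 and 247 CPM against 2104 and 2834 (-3.51 ± 0.21, adjusted p = 7.4e-06), gja1b, the connexin of glial gap junctions, at 18.7 and 21.0 CPM against 321 and 394 (-4.13 ± 0.25, adjusted p = 7.4e-06) and mlc1, a membrane protein of glial endfeet, at 61.7 and 26.8 CPM against 364 and 463 (-3.19 ± 0.31, adjusted p = 0.00011). Id4, an inhibitor of differentiation factors, fell by 3.90 on the log2 scale (SE 0.34, adjusted p = 6.7e-05). Fabp7b, a radial glia gene of the progenitor glia list and not a gene of settled glia, was lower too. It was at 5128 and 4523 CPM against 13651 and 13467 (-1.46 ± 0.09, adjusted p = 8.5e-06). Within each gene named here both cycling values lay below both others, but some of them were chosen after their values were seen. The gate may take in glia of different kinds, so a lower level per cell and fewer cells of a kind cannot be told apart here either.

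**Figure D4:**
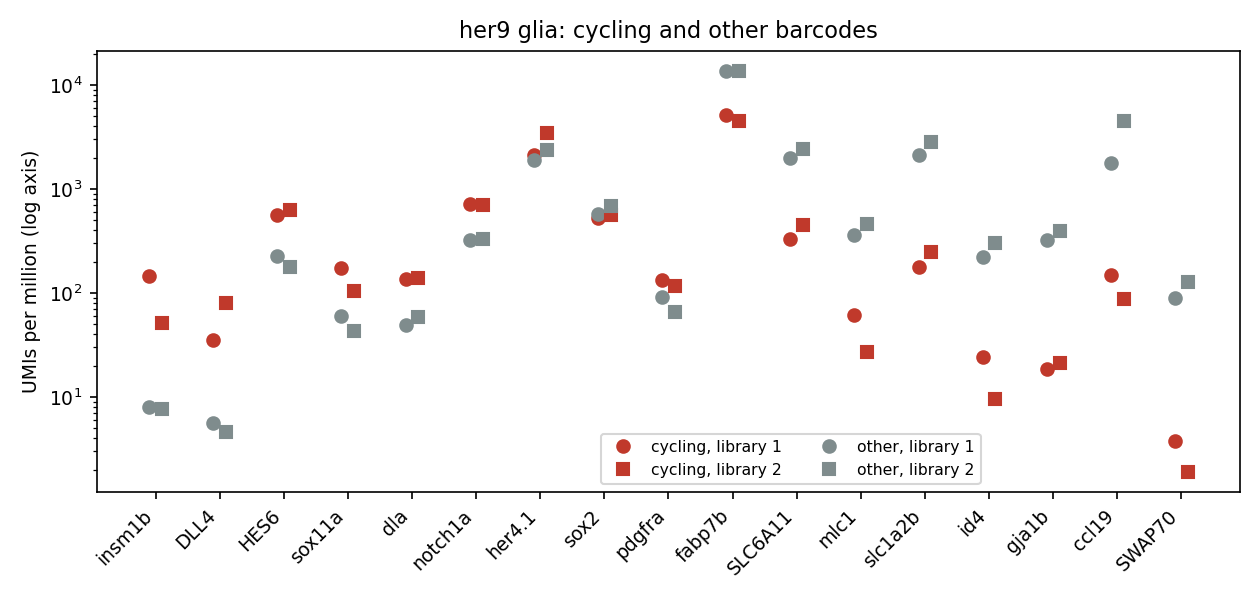
Level of 17 genes in CPM (log axis) in summed cycling (red) and other (grey) barcodes of the her9 glia gate, library 1 (circles) and library 2 (squares). The genes run from neurogenic through progenitor and precursor to glial genes, and ccl19 and SWAP70, from the largest decreases, stand last. Insm1b, DLL4, HES6 and notch1a lie higher in cycling cells in both libraries, sox2 lies close in both groups, and SLC6A11, slc1a2b and gja1b lie lower.

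The 6 largest decreases within her9 glia were klf4 (-5.71 ± 0.70, adjusted p = 0.00050), SWAP70 (-5.18 ± 0.46, adjusted p = 7.1e-05), ccl19 (-4.69 ± 0.43, adjusted p = 8.7e-05), crabp2b (-4.27 ± 0.99, adjusted p = 0.014), proca1 (-4.21 ± 0.49, adjusted p = 0.00036) and aspa (-4.14 ± 0.35, adjusted p = 5.0e-05). Klf4, SWAP70 and crabp2b rested on 0 to 3 UMIs per library in the cycling cells, where a fitted fold is no bound. Klf4, a factor that restrains division in many tissues, was at 0 and 5.73 CPM in cycling and 105 and 210 CPM in other her9 glia. Ccl19, a chemokine, was at 148 and 87.9 CPM against 1788 and 4444, and crabp2b, a retinoic acid binding protein, at 5.61 and 5.73 CPM against 41.1 and 187. The 6 largest increases were again genes of division (fbxo5, iqgap3, prc1a, nuf2, cenpl and aurka). Ccnd2a, a cyclin of G1 phase, fell (52.3 and 45.9 CPM against 115 and 119, -1.22 ± 0.21, adjusted p = 0.0032), and with the gate read in thinned cells it stood at -1.04 (adjusted p = 0.053). Its list, of D cyclins and cell cycle inhibitors, did not fall as a whole. Of 14 tested features 3 were called higher and 2 lower (median 0.34, against -0.04 over all genes tested). Over all genes tested 12.2% were higher and 10.9% lower. Pdgfra was at 133 and 117 CPM against 90.7 and 65.2 and did not pass (0.70 ± 0.23, adjusted p = 0.053), but passed with the library as replicate block (0.017) and between cells of 6000 to 12000 UMIs (1.14, adjusted p = 0.017). The rest of the oligodendrocyte precursor list leaned the other way. Of its 14 tested features 6 were called lower and 0 higher (median -0.93, against -0.04 over all genes tested), and DESeq2 called 2.

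Markers of other cell types gave calls in some lists and not in others in this comparison. Over all genes tested 12.2% were called higher and 10.9% lower. Of 6 tested mural features 4 were called lower, among them pdgfrb (3.74 and 19.1 CPM against 79.0 and 104, adjusted p = 0.0017), and cnn1b was called higher. DESeq2 called 2 of the 6. The cnn1b call was lost by DESeq2 (adjusted p = 0.087), after thinning (adjusted p = 0.087) and among cells of 6000 to 12000 UMIs (0.17, adjusted p = 0.83). Of 4 meningeal or fibroblast features 3 were called lower, among them the collagen gene col6a1 (9.34 and 9.56 CPM against 47.7 and 78.4, adjusted p = 0.0023), and DESeq2 called 1 of the 4. The 1 endothelial feature tested, the tight junction gene cldn5a, was called higher (74.8 and 68.8 CPM against 29.5 and 26.5, adjusted p = 0.0035). Of the 15 features of the endothelial list, 9 had no UMI in any member, and only 8 had counts enough to be tested against all other fugu cells. Among members outside the microglia gate, thinned, gfap was in 18 of 21 with cldn5a (85.7%) and in 79 of 154 without it (51.3%). Whether cldn5a marks endothelial cells here was not tested. Of 2 tested B cell features, swap70b was called higher and SWAP70 lower, so that 2 features of the same gene name went opposite ways. None of 11 myelinating, 9 neuron or 4 microglia features tested was called by edgeR in the main fit or by DESeq2. In either, 0 passed an unadjusted p under 0.05. Plp1b was at 2011 and 1432 CPM in cycling and 2093 and 2032 CPM in other her9 glia (-0.23 ± 0.15, adjusted p = 0.32). Alternatives moved some of these features. Without a filter on low counts the neuron gene snap25a was called higher (1.25, adjusted p = 0.013), and leaving out 1 sum put it between -1.35 and 2.19. Without the cycling sum of library 1 or library 2, lcp1 stood at 2.15 or -6.53 and AIF1 at 1.73 or -2.43. Cldn11a stood at 1.27 without the other sum of library 1. With the gate read in thinned cells, myelin genes were lower in the cycling cells (plp1b -1.86, adjusted p = 0.00024). The part of free RNA and of mixed barcodes in these levels was not tested.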

How the data were processed

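Single-cell 3' libraries of spinal cord, 2 each from 3 species, were deposited as matrices of raw UMI counts over all barcodes by the authors, whose processing notes name Cell Ranger 7.2.0 and Seurat 5.3.0. Only the fugu counts were used here. Barcodes above 3000 UMIs were kept, and 15198 of 21383 features had a symbol. Kept barcodes held 62.3% and 62.4% of the UMIs of libraries 1 and 2. The members and all gene lists were chosen with earlier results of these data known. Cells were thinned to 3000 UMIs with a fixed seed for shares and gates. Exact (Clopper-Pearson) intervals cover counting error only. Scrublet (scanpy 1.11.5) marked 0.8% of barcodes per 1000 barcodes, and these were kept.

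UMIs were summed per library and group into 4 sums and tested with edgeR 4.0.16 (quasi-likelihood test, TMM, filterByExpr, Benjamini-Hochberg adjustment, two-sided) in R 4.3.3, leaving out the 4 rule genes and, within her9 glia, the gate genes. Cells are not replicates, and with 2 libraries of pooled fish the p-values measure only the spread between these libraries. Cycling and other cells of a library come from the same fish and so are paired, and their deviations from the group means correlated at 0.246 over 13810 genes and 0.144 over 8434 within her9 glia. On simulated counts with 200 genes changed 4-fold, the test found 83% of them among 13738 genes, with 4 false calls. In the her9 glia setting it found 81.5% among 8267 genes, with 2 false calls. The simulation drew each sum independently and changed fewer genes than were called here. It therefore cannot show how the tests behave with paired libraries and so many changed genes. Genes were named by rule: the rule genes, up to 6 features of each list carried by at least 5% of members in both libraries, absent defining genes, and the 6 largest called changes in each direction with a mean of at least 50 CPM in the higher group. MYRF, gpr17, OLIG2, the Notch ligands and receptors, DCX, pdgfrb, slc1a2b, mlc1, gja1b, id1 and id4 and the genes given as cell numbers in the subgroups were added after their values were seen. Alternatives were RLE scaling, DESeq2 1.42.0, no filter, the library as block, leaving out each sum, thinned sums, a minimum of 4500 UMIs, 2 UMIs on each side of the rule, and doublets removed, and, chosen after seeing the data, barcodes of 6000 to 12000 UMIs and the her9 glia gate read in thinned cells.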

Additional observations from a re-analysis of the deposited data

Results flagged for a closer look

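Barcodes below the UMI minimum were not used in any comparison. Between 1000 and 3000 UMIs, 7 of 1170 barcodes of library 1 (0.598%) and 11 of 1192 of library 2 (0.923%) carried top2a together with mad2l1, kif11 or cdca3, a lower share than the 3.49% and 4.20% above the minimum. They stand out as signal in barcodes that the report leaves out, and the part of depth in the lower share was not tested.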

How the results depend on the processing

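Over the single genes followed, 1090 of 1234 values against all other cells (95 genes) and 999 of 1122 within her9 glia (84 genes) kept their direction and call. The count of genes lower against all other cells was 1534 without a filter on low counts, where more genes were tested. Within her9 glia, genes higher numbered 638 after thinning to 3000 UMIs and 537 with gate and sums on thinned cells, and genes lower 560 and 481, with fewer genes tested, and 415 by DESeq2, for which the cause was not tested. Leaving out 1 library sum gave 572 (without the other sum of library 2) to 890 genes lower within her9 glia. Without library 2 or library 1 there were 91 or 108 members. The share of members with the her9 glia gate was 57.8% without thinning and 42.3% with at least 2 UMIs on each side of the rule. Direction turned for apoeb, which ranged from -1.62 (without the cycling sum of library 2) to 0.82 against all other cells and from -2.24 to 1.28 within her9 glia. It also turned for mbpa (-1.88) and cd59a (-2.29) within her9 glia with gate and sums on thinned cells. The cause was not tested. In the paired fit, with the library as replicate block, 2573 genes were higher and 3025 lower against all other cells, and 1106 and 1019 within her9 glia. It also called gpr17 (1.33, adjusted p = 0.017) and prdm8b (0.84, adjusted p = 0.026) higher against all other cells and id1 (-0.47, adjusted p = 0.033) lower within her9 glia, by edgeR. Depth set how many members passed a gate: without thinning the myelinating gate held 89 members in place of 42, the astrocyte gate 77 in place of 42 and the microglia gate 25 in place of 24.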
